A study of Mus musculus with 6 samples.

Results

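The genes described here encode structural and assembly proteins of the sperm flagellum. They were chosen by name, as 42 gene symbols covering the outer dense fibres, fibrous sheath, tektins, dynein arms, radial spokes, other axoneme proteins, flagellar transport and the mitochondrial sheath. Of the 42, 40 had at least 1 RefSeq mRNA transcript (an identifier starting with NM_) in any of the 6 samples, out of 14455 genes with such a transcript. Fsip2 and Rsph10b had no such row and have no value here.

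Total RNA was sequenced strand-specifically after rRNA removal in 4 sperm samples and 2 testes samples of untreated mice, C57BL/6 in the labels (C57BL/6J in the study's methods) and aged 3 to 5 months in the labels. The study's methods give a lower range of ages, in weeks. Sperm swam out of the caudal epididymis and vas deferens, and each sample is a pool of several mice, treated with a lysis buffer that removes somatic cells. Testes samples were tissue of the same mice, which holds somatic cells and every germ cell stage. The study left out sperm replicate 1, and the comparison here accordingly set sperm replicates 2, 3 and 4 against testes replicates 1 and 2, with replicate 1 given beside them.

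The flagellum is built around the axoneme, a ring of microtubule doublets with a central pair. Dynein arms slide the doublets, radial spokes pass signals from the central pair, and tektins line the doublets. In the tail, outer dense fibres stiffen the axoneme, the fibrous sheath anchors enzymes along the principal piece, and mitochondria wrap the midpiece. Intraflagellar transport (IFT) carries parts to the growing tip. These mRNAs are made mostly in spermatocytes and spermatids, before transcription stops in the condensing nucleus. Whether those found in mature sperm are remnants of that stage was not tested.

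Levels are given as estimated counts and as ppm, meaning parts per 1000000 of all NM_ counts of that sample. NM_ counts summed to 42390, 100027, 33511 and 54337 in the sperm samples, in replicate order, and to 322625 and 314273 in testes. A level of 3 counts, taken as the floor of detection, was thus 30.0 to 89.5 ppm in sperm replicates 2 to 4 and 9.30 to 9.55 ppm in testes. Every sperm sample was shallower than both testes samples, so depth and group cannot be told apart. The 10 most abundant genes held 27.1% ± 4.68 of NM_ counts over the 3 sperm samples (SD) and 10.0% ± 0.500 over the 2 testes samples, with Abi3 alone at 12.6% ± 2.17 in sperm.

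Labels were checked against marker genes. Markers of elongating spermatids, which make the protamines that pack sperm DNA, summed to 1462 to 2577 ppm in sperm replicates 2 to 4 and 2103 to 2601 ppm in testes, with all 6 of 6 above 0 in both. Most of the sperm value was Prm2, with 148, 49 and 130 counts in replicates 2 to 4 and 465 and 220 in testes. The other 5 of these markers had ratios of summed shares below 1, from 0.037 for Tnp1 to 0.336 for Tnp2, and Prm1 and Tnp1 were called lower (edgeR FDR 0.0295 and 0.0283). Markers of spermatocytes were at 0 in all 4 sperm samples and at 96.1 and 98.6 ppm in testes. Spermatogonium markers, with 2 of 4 above 0, summed to 99.97 to 179 ppm in the sperm samples compared, 307 ppm in replicate 1 and 772 to 1015 ppm in testes. Of these Gfra1 had counts in all 4 sperm samples. Sertoli cell markers, of which 2 of 7 were above 0 in sperm, summed to 0 to 40.0 ppm in these sperm samples and 68.1 to 74.4 ppm in testes, and leukocyte markers, 3 of 4 above 0 through 1 or 2 counts each in replicate 2, to 0 to 49.99 and 9.55 to 34.1 ppm. Epididymal epithelium markers summed to 90.0 to 269 ppm in sperm, of which 5 of 9 were above 0, and 102 to 178 ppm in testes, with Cdh1, Lcn5 and Crisp1 in no table. Leydig cell markers reached 1194 ppm in sperm replicate 3, through Star with 40 counts, against 110 and 170 ppm in the other 2 samples compared and 541 to 580 ppm in testes, and Cyp11a1, Hsd3b1 and Insl3 were at 0 in sperm. Ciliated epithelium, which shares axoneme genes with sperm, had Foxj1 with 3 counts in sperm replicate 4 and no other marker above 0 in sperm. The part these cells had in the values below was not tested.

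These 40 flagellum genes held a smaller share of NM_ counts in sperm than in testes, and Odf2 made up most of that share in sperm. The 40 genes summed to 1255, 418 and 699 ppm in sperm replicates 2, 3 and 4 and 401 ppm in replicate 1. They summed to 1990 and 3104 ppm in testes, above all 4 sperm values. The sperm mean of 791 ± 426 ppm (SD, n = 3) was 0.310 of the testes mean of 2547 ± 788 ppm (SD, n = 2). With the 10 most abundant genes taken out of the total, it was 0.375 of the testes mean. Without Odf2 the means were 236 ± 224 and 1643 ± 546 ppm, a ratio of 0.143. Leaving out sperm replicate 2, the highest of the 3, brought that ratio to 0.0707. These sums are given without a test, because the genes were chosen with earlier results of these data known. Fewer cells of a type and less RNA per cell cannot be told apart in such bulk samples.

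**Figure D1:**
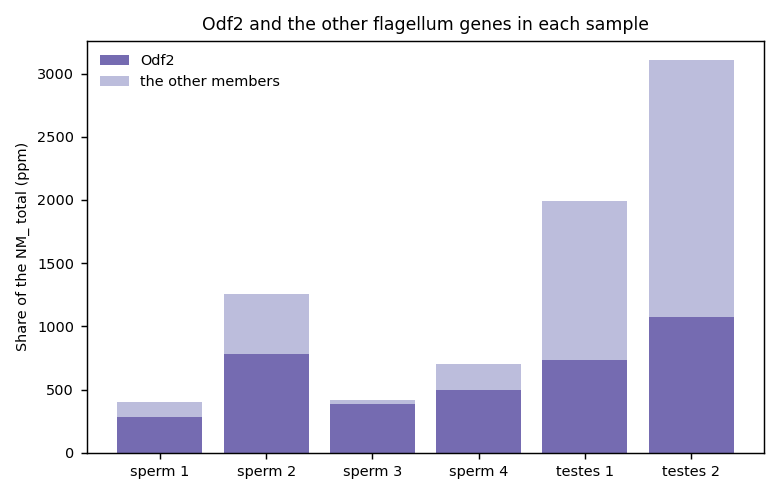
Share of the NM_ total (ppm, y axis) held by Odf2 (dark) and by the other flagellum genes (light) in each of the 6 samples (x axis). Odf2 makes up 62.2% to 92.9% of the bar in sperm replicates 2 to 4, against 36.8% and 34.6% in testes.

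Single genes were tested in 1 fit over all genes with at least 10 counts summed over the 5 samples compared. This filter passed 6786 genes, of which 28 were flagellum genes, and most of these passed through their testes counts. Calls required a fold change above 2 and an edgeR FDR, the Benjamini-Hochberg adjusted p of edgeR's quasi-likelihood test, below 0.05. Log2 fold changes of sperm over testes (LFC) are given ± SE. By that rule 3 flagellum genes were lower in sperm (Ift140, Meig1 and Rsph1), where 3.67% of all tested genes were called lower. None was higher, against 3.57% of all genes. None of the 28 had an unadjusted p below 0.05 in the upward direction in edgeR, DESeq2 or limma, and only with sperm replicate 3 left out did 1 gene, Hydin, pass that level. In the downward direction 15 flagellum genes had an unadjusted p below 0.05, where 30% of all tested genes did. The median log2 fold change of the 28 genes was -3.96 and that of all tested genes was -1.19. Both medians include fitted values of genes at 0 in sperm, which depend on how 0 counts are treated. The gap between them was thus not taken as a size of effect. The log2 fold change was negative for 26 of the 28, as it was for 66.0% of all tested genes. Of the 28, 12 were at 0 in sperm replicates 2 to 4. They passed the filter through testes alone, so their sign was fixed. The same holds for 22.3% of all tested genes, so these shares do not test a direction.

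In all 3 sperm samples 21 of the 28 tested genes lay below both testes samples, while 45.1% of all tested genes did so. None of the 28 lay above testes in all 3, where 7.77% of all tested genes did. Of the 40 genes, 20 had 0 counts in sperm replicates 2 to 4, and the same 20 were at 0 in replicate 1. Of all 14455 genes 49.1% were at 0 in replicates 2 to 4, so this share was near that of all genes. Among the 28 tested genes 12 were at 0 in replicates 2 to 4, where 22.3% of all tested genes were. Genes at 0 there passed the filter only through testes, so these shares and the 21 of 28 above are descriptions, not tests. At the testes share, 16 of the 40 genes would have given fewer than 3 counts in the 187875 NM_ counts of these sperm samples, so 0 counts there did not show a difference. Of the 20 genes at 0, 9 were of this kind and 11 would have given 3 or more counts.

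**Figure D2:**
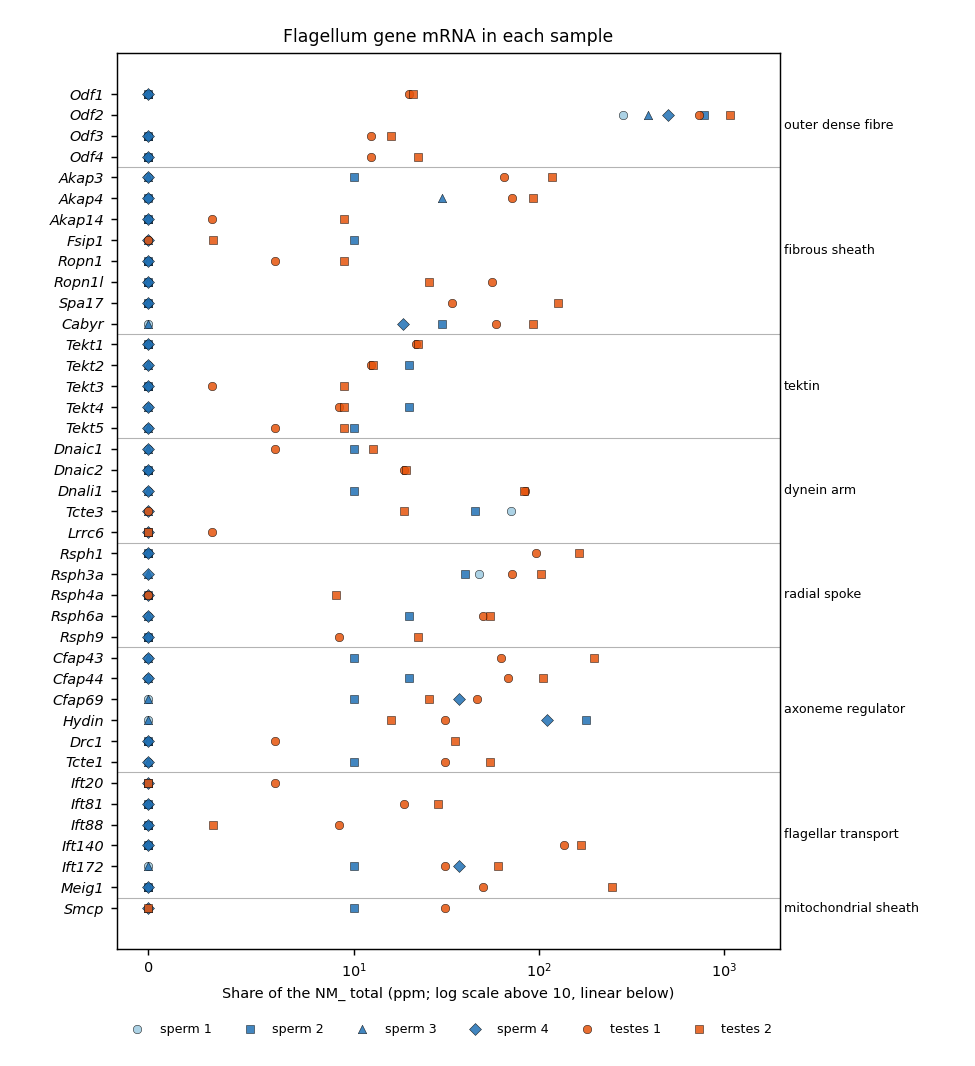
Level of each of the 40 flagellum genes (y axis, grouped by role) as share of the NM_ total in ppm (x axis, log scale above 10 and linear below), with 1 point per sample. Most sperm points (blue, replicate 1 pale) sit at 0, Odf2 is the only gene with counts in all 4 sperm samples, and Hydin is above testes (orange) in sperm replicates 2 and 4.

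The outer dense fibres were represented by 4 genes, and none was called. Odf2 (GRCm38.p6 chromosome 2, 29889014 to 29931746) encodes a main fibre protein that is also a centrosome component of other cells. It had 78, 13 and 27 counts in sperm replicates 2, 3 and 4, 12 in replicate 1, and 236 and 338 in testes. This was 780, 388 and 497 ppm in sperm and 733 and 1075 ppm in testes, so sperm replicate 2 lay above testes replicate 1 and the groups overlapped. The LFC was -0.69 ± 0.68 (edgeR FDR 0.468), with an approximate 95% interval of -2.02 to 0.65. The ratio of summed shares was 0.697, with an exact 95% interval of 0.567 to 0.851 that covers counting error only. Per length, Odf2 had the highest summed FPKM (fragments scaled by transcript length and mapped depth) of the 40 genes in every sample, with means of 24.1 ± 8.21 in the 3 sperm samples (SD) and 47.1 ± 15.3 in the 2 testes samples.

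Odf2 counts lay mostly in the transcripts NM_001177661 and NM_013615. The former held 48.0, 13 and 24.7 counts in the 3 sperm samples compared, against 134 and 257 in testes. The latter held 30.0, 0 and 2.33 counts there, against 91.0 and 80.9. Sperm replicate 1 differed from the rest, with 1 count of NM_001177661 and 11 of NM_013615. The tables hold estimates for transcripts that share exons, so these splits are less certain than the gene sum.

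Odf1, Odf3 and Odf4 were at 0 in all 4 sperm samples and low in testes. Odf1, a cysteine-rich main fibre protein of the tail, had 6.43 and 6.55 counts in testes, Odf3 had 4 and 5, and Odf4 had 4 and 7. The summed testes share was 1.28 times the floor of 3 counts over the 3 sperm samples for Odf1, and 1.08 times for Odf4. Such ratios take the testes counts as exact, so they are not lower bounds on a decrease. Neither gene was called (edgeR FDR 0.0882 and 0.0990). Odf3 did not pass the filter.

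The fibrous sheath genes, 8 of which had a row, had 7 counts in all in sperm replicates 2 to 4 and 245 in testes. Akap4, the main sheath protein and an anchor of protein kinase A, had 0, 1 and 0 counts in sperm replicates 2, 3 and 4, 0 in replicate 1, and 23 and 29 in testes. Its ratio of summed shares was 0.065 (exact 95% interval 0.0016 to 0.380), and its LFC of -3.56 ± 1.86 was not called (edgeR FDR 0.139). Akap3, the other large anchor protein of the sheath, had 1, 0 and 0 counts in sperm and 21 and 37 in testes, with an LFC of -4.03 ± 1.87 (edgeR FDR 0.0963). All 3 sperm samples lay below both testes samples for each of these genes.

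Spa17 and Ropn1l, which carry the docking domain for such anchors, were at 0 in every sperm sample. Spa17 had 11 and 40 counts in testes, with a summed share 5.01 times the sperm floor. The testes samples differed for it, at 34.1 and 127 ppm. Ropn1l had 18 and 8 counts in testes, with a summed share 2.56 times that floor. Cabyr, a calcium-binding sheath protein, was the only sheath gene with more than 1 count in sperm, at 3, 0 and 1 counts in replicates 2 to 4 against 19 and 29 in testes (LFC -1.95 ± 1.58, edgeR FDR 0.364). Spa17 did not pass either (edgeR FDR 0.0712). Akap14, Ropn1 and Fsip1 had 0 to 3 counts in each testes sample and did not pass the filter.

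Tektins, the filament proteins of the doublet wall, were near the floor in both groups, with 5 counts summed over the 5 genes in sperm, all in replicate 2, and 37 in testes. Tekt1 had 0 counts in sperm and 7 and 6.99 in testes (LFC -4.91 ± 2.16, edgeR FDR 0.0841). Tekt2 had 2, 0 and 0 counts in sperm replicates 2 to 4, against 4 in each testes sample, and Tekt4 had 2, 0 and 0 against 3 and 3. The ratio of summed shares of Tekt2 was 0.848, with an exact 95% interval of 0.0877 to 4.25. A decrease or increase within that interval could not be told from no difference at this depth.

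Among dynein arm genes, Dnali1, a light intermediate chain of the inner arm, had 1, 0 and 0 counts in sperm replicates 2 to 4, against 27 and 26 in testes. Its ratio of summed shares was 0.064 (exact 95% interval 0.0016 to 0.372), and it was not called (LFC -3.90 ± 1.85, edgeR FDR 0.101). The outer arm intermediate chains Dnaic1 and Dnaic2 had 1 and 0 counts in sperm and 2 to 6 in each testes sample. Tcte3, a dynein light chain, had 4.5, 0 and 0 counts in sperm replicates 2 to 4, 3 in replicate 1, and 0 and 5.88 in testes (LFC 0.96 ± 1.18, edgeR FDR 0.563). It overlaps Ermard in the annotation. Lrrc6, a factor for arm assembly, had 1 count in testes replicate 1 and none elsewhere.

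Of the radial spoke genes, Rsph1 (chromosome 17, 31255019 to 31277296), a spoke head protein, fell. It had 0 counts in every sperm sample, against 31 and 52 in testes, which were 96.1 and 165 ppm. The summed testes share was 8.16 times the floor of 3 counts over the sperm group (LFC -7.44 ± 2.51, edgeR FDR 0.0451). The fitted fold change depends on how 0 counts are treated and is not a bound. Rsph1 overlaps Ubash3a in the annotation, and whether the counting used strand is not given in the sources used here. Of the 39 genes with a position, 10 overlap another coding gene, among them Spa17, Dnali1, Cabyr, Tcte1 and Rsph9. Rsph3a had 4, 0 and 0 counts in sperm replicates 2 to 4, 2 in replicate 1, and 23 and 32.4 in testes, and Rsph6a had 2, 0 and 0 against 16 and 17. Neither passed (edgeR FDR 0.285 and 0.260), and Rsph3a has a close paralog, Rsph3b, that could share reads with it. Rsph4a and Rsph9, both of the spoke head, were at 0 in sperm, with 0 and 2.87 counts and 3 and 7 counts in testes.

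**Figure D3:**
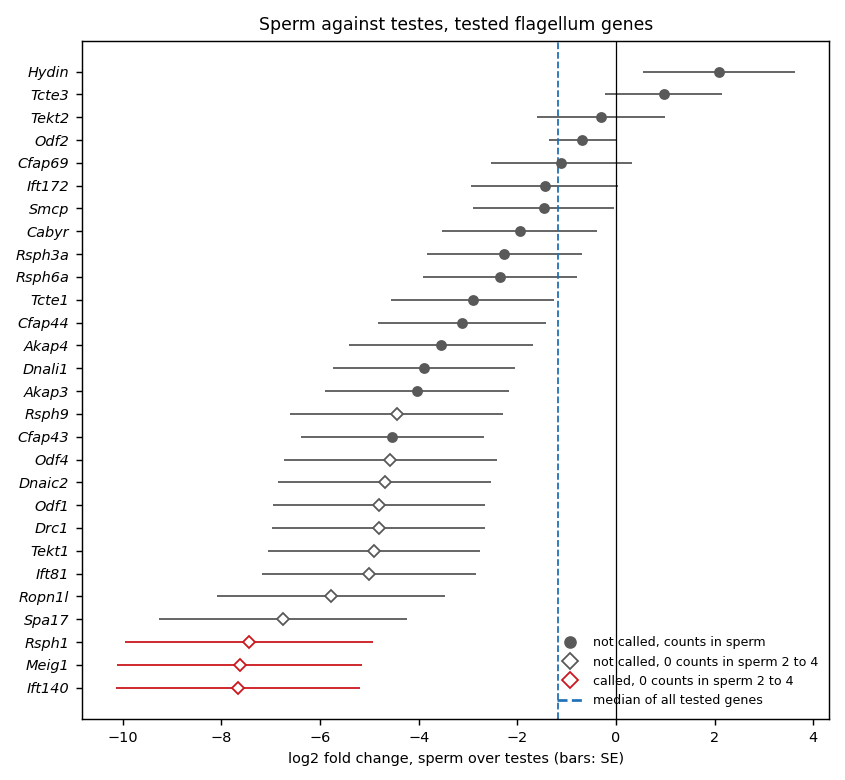
Log2 fold change of sperm over testes (x axis, bars are SE) for the 28 flagellum genes tested (y axis), from edgeR's quasi-likelihood test. Red marks the 3 genes called, open diamonds the genes with 0 counts in sperm replicates 2 to 4, and the dashed line the median of all 6786 tested genes at -1.19; 2 of the 28 genes lie above 0.

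The other axoneme genes differed among themselves. Cfap43 and Cfap44, which tether the inner dynein arm and are needed for a normal tail, had 1, 0 and 0 and 2, 0 and 0 counts in sperm replicates 2 to 4. In testes Cfap43 had 20 and 62 counts and Cfap44 had 22 and 33, above every sperm sample in ppm. Neither was called, with an LFC of -4.54 ± 1.86 for Cfap43 (edgeR FDR 0.0727) and of -3.12 ± 1.71 for Cfap44 (edgeR FDR 0.160). Of the nexin-dynein regulatory complex, which links neighbouring doublets, Tcte1 had 1, 0 and 0 counts in sperm and 10 and 17 in testes, and Drc1 had 0 in sperm and 2 and 11 in testes. Cfap69 had 1, 0 and 2 counts in sperm and 15 and 8 in testes, and its groups overlapped.

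Hydin (chromosome 8, 110266968 to 110610253), a very large central pair protein with a transcript of 15783 bases, had the most positive LFC of the 28 flagellum genes tested. It had 18, 0 and 6 counts in sperm replicates 2, 3 and 4, 0 in replicate 1, and 10 and 5 in testes. This was 180, 0 and 110 ppm in sperm and 31.0 and 15.9 ppm in testes, so 2 sperm samples lay above testes and 2 were at 0. In replicate 3, where 3 counts correspond to 89.5 ppm, a level like that of testes would not have been seen. The LFC of 2.09 ± 1.54 was not called (edgeR FDR 0.315). Per length Hydin stayed low, with FPKM of 1.07, 0 and 0.75 in sperm and 0.22 and 0.12 in testes.

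Flagellar transport genes had 3 counts in all in sperm replicates 2 to 4 and 241 in testes, and both of the other called genes were among them. Ift140 (chromosome 17, 25016083 to 25099499) belongs to the IFT complex for return transport from the tip. It had 0 counts in every sperm sample, against 44 and 53 in testes. Its summed testes share was 9.54 times the sperm floor (LFC -7.66 ± 2.48, edgeR FDR 0.0334). Meig1 (chromosome 2, 3409043 to 3422648) acts in the manchette that delivers cargo for tail building. It had 0 counts in sperm and 16 and 78 in testes. Its summed testes share was 9.24 times the sperm floor (LFC -7.63 ± 2.48, edgeR FDR 0.0353). The testes samples differed widely for Meig1, at 49.6 and 248 ppm, against a floor of 15.97 ppm over sperm replicates 2 to 4. Ift140 overlaps Tmem204 in the annotation.

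Of the complex for outward transport, Ift172 had 1, 0 and 2 counts in sperm replicates 2 to 4, against 10 and 19 in testes, and its groups overlapped (edgeR FDR 0.489). Ift81 had 0 in sperm and 6 and 9 in testes, and Ift20 and Ift88 had 0 to 3 counts in any sample. Smcp, a cysteine-rich protein of the mitochondrial capsule in the midpiece, had 1, 0 and 0 counts in sperm replicates 2 to 4, against 10 and 0 in testes. Testes replicate 2 listed no Smcp at all, and its LFC of -1.47 ± 1.43 was not called (edgeR FDR 0.461).

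The calls of Ift140, Meig1 and Rsph1 depended on single libraries. Without sperm replicate 3 all were called, with edgeR FDR of 0.0016, 0.0019 and 0.0038. Without sperm replicate 2 they were lost, at 0.143, 0.159 and 0.150, and without replicate 4 at 0.0844, 0.0887 and 0.105. Without testes replicate 1 all had 0.321, and without testes replicate 2 they had 0.316, 0.294 and 0.316, also lost. With TMM factors they stood at 0.0538 each. DESeq2 called 8 flagellum genes lower and none higher, where it called 12.2% of all genes lower and 2.65% higher. These percentages are over all 6786 tested genes. Some of the flagellum genes, among them Odf1, Odf4, Tekt1 and Ift81, had no adjusted p in DESeq2 and could not be called. The limma fit on log2(FPKM + 1) called 15 lower and none higher, against 22.5% and 3.4% of all genes. With all 4 sperm samples edgeR called 7 lower and none higher, against 17.7% and 3.85%. The 3 genes had 0 counts in every sperm sample, so the negative sign of their log2 fold changes was fixed in every setting.

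**Figure D4:**
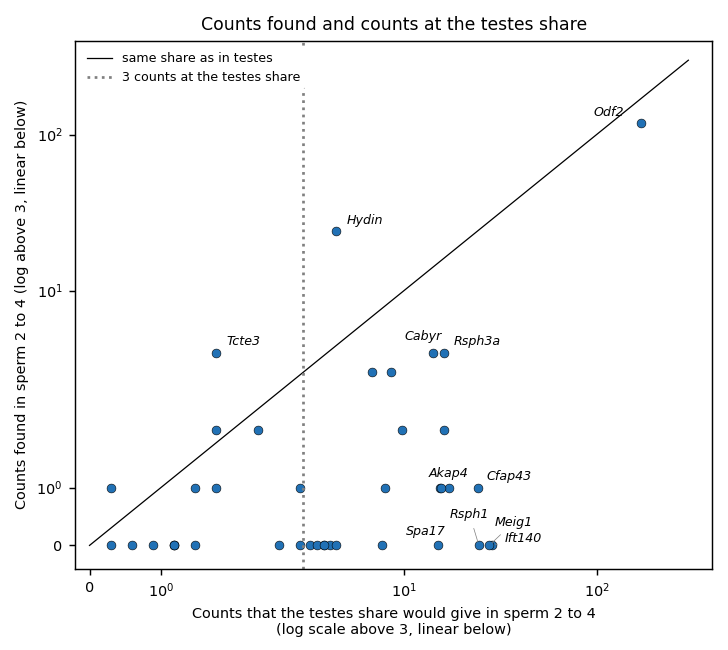
Counts found in sperm replicates 2 to 4 together (y axis) against the counts that the testes share would give there (x axis), for the 40 flagellum genes; both axes are logarithmic above 3 and linear below. Odf2 lies below the line of equal share, at 118 counts against 169. Hydin, Tcte3, Fsip1 and Tekt4 lie above the line, Fsip1 and Tekt4 through 1 and 2 counts, under the floor of 3. Ift140, Meig1 and Rsph1 lie at 0 where the testes share would give 24.5 to 28.6 counts.

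In testes the flagellum genes spanned a wide range per length. Mean FPKM ran from 0.085 for Lrrc6 to 47.1 for Odf2, and only 4 genes reached 10. After Odf2 these were Meig1 at 27.1 ± 26.3, Spa17 at 15.0 ± 12.8 and Rsph1 at 13.8 ± 5.83 (SD, n = 2 each), whose neighbours in this order did not differ beyond their spread. Akap4, Odf1 and Smcp, which encode main structural proteins of the tail, had mean FPKM of only 3.40, 2.25 and 2.06. By FPKM, Akap4 stood at rank 2386 of 12250 genes in testes replicate 1 and 1635 of 11537 in replicate 2. Testes replicate 2 had the higher ppm for 32 of the 40 genes, and for Spa17, Cfap43 and Meig1 it held 127, 197 and 248 ppm against 34.1, 62.0 and 49.6.

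Other genes of flagella and motile cilia, from a list of 99, had a row in 87 cases and passed the filter in 50. Of these 1 was called higher and 2 were called lower, shares near those of all tested genes (3.57% and 3.67%). The median log2 fold change of these 50 was -2.18, and that of all tested genes was -1.19. Of the 50, 35 had a negative value and 15 a positive one, and 17 were at 0 in sperm replicates 2 to 4, which fixed their sign. The 87 genes together held 4390 ± 1506 ppm in sperm (SD, n = 3) and 6257 ± 91.7 ppm in testes (SD, n = 2), a ratio of 0.702. Zmynd10, which helps assemble dynein arms in the cytoplasm, had 136, 22 and 33 counts in sperm replicates 2 to 4, 37 in replicate 1, and 19 and 13 in testes. All 4 sperm samples lay above both testes samples in ppm, and it rose, with an LFC of 4.11 ± 0.91 (edgeR FDR 3.02e-04). Its call was lost without sperm replicate 2 (edgeR FDR 0.0736), without testes replicate 2 (0.0680), with TMM factors (0.0538) and with no filter on low counts (0.178). Iqcg, of the nexin-dynein regulatory complex, was lower, from 20, 16 and 16 counts in sperm to 386 and 450 in testes (LFC -2.05 ± 0.69, edgeR FDR 0.0425). Spef1, a microtubule-bundling protein of the central pair, was lower too, with 46, 0 and 23 counts against 441 and 377 (LFC -2.06 ± 0.69, edgeR FDR 0.0417). Both were lost without sperm replicate 2 or 4 and without either testes sample, over edgeR FDR of 0.0556 to 0.321, and with TMM factors or no filter. Spef1 was also not called by DESeq2, by limma at either pseudocount or with the replicate block, so that it was called in 4 of 14 alternatives and Iqcg in 8.

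Promoter sequence was examined for what the members share beyond the choice by name. RFX transcription factors, known regulators of cilium genes, bind the X-box, a palindrome-like element of which GTTGCC is one arm. RefSeq windows of GRCm38.p6, from 250 bases before to 50 after a transcript start, matched 33 of the 42 genes by symbol. GTTGCC or its reverse complement GGCAAC was found in 13 of the 43 windows of these genes (30.2%), and in 12.5% of all 32851 windows. It was present in 12 of the 33 genes, namely 3 of 5 tektins, 3 of 5 other axoneme genes, 3 of 5 transport genes, 1 of 3 outer dense fibre genes, 1 of 4 dynein arm genes and 1 of 7 fibrous sheath genes, and in none of 3 radial spoke genes. In 9 genes a match lay before the start. A match is a description of letters and not a binding site. Some of these stretches are shown because they cover 1 called gene and the flagellum gene with the most positive LFC of the 28 tested, beside 1 member of several roles, with the matched letters in capitals and up to 27 bases on each side, ending no later than the start of the RefSeq transcript that the window belongs to, which can differ from the outer start of the gene in the annotation. They are Ift140 (chr17:25015950-25016009), Hydin (chr8:110266937-110266976), Cfap44 (chr16:44394753-44394798) and Dnaic2 (chr11:114727366-114727418) on the plus strand, and Tekt2 (chr4:126325678-126325737) and Ropn1l (chr15:31453690-31453736) on the minus strand, all written 5′ to 3′ along the gene.
Ift140: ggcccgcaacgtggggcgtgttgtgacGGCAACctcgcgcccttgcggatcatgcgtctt
Hydin: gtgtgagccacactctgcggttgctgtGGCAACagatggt
Cfap44: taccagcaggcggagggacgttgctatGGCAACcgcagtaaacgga
Dnaic2: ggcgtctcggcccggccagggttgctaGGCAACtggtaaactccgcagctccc
Tekt2: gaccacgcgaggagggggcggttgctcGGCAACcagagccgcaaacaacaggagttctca
Ropn1l: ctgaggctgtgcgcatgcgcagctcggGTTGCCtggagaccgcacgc
Ift140 was called lower and Hydin was not called. Odf2 had no match in any of its windows.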

How the data were processed

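Sperm (4 samples) and testes (2 samples) were grouped by their titles. The authors removed adaptor, empty and low-quality reads and aligned the rest with SOAPaligner/SOAP2; the submitters' processing notes name HISAT and mm10 without a role. For each transcript the deposited values are an estimated count, unscaled, the FPKM that the authors computed, and a length. The counting program is not given in the sources used here. Transcripts absent from a table were taken as 0.

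NM_ rows were summed per gene symbol, and counts were rounded to whole numbers for testing. The NM_ total was the library size. Genes with 10 or more counts over the 5 samples compared were tested with edgeR's quasi-likelihood test and Benjamini-Hochberg adjustment. TMM factors, the total of all transcripts, DESeq2, limma, other filters, all 4 sperm samples, a replicate block and leaving out each sample were tried as alternatives. Methods were tested on simulated data. The members and lists were chosen with earlier results of these data known. Every called member, every member with 10 or more counts in sperm replicates 2 to 4, and Akap4, Odf1, Odf2 and Smcp were to be written out, with the others by count and range; values of further members were added after they were seen. Standard errors were derived from the F statistic. Positions are those of GRCm38.p6, matched by accession for 39 of 40 genes. Replicate pairs differed beyond counting noise, with chi-square of 4.93 to 12.5 for each degree of freedom, and none were merged. The study calls the samples biological replicates, and p-values measure only the spread between them. Intervals and floors cover counting error only. Python 3.11.15 with pandas 2.3.3, numpy 2.4.6 and scipy 1.17.1 was used beside R 4.3.3, in which DESeq2 1.42.0, limma 3.58.1 and edgeR 4.0.16 were run.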

Additional observations from a re-analysis of the deposited data

Results flagged for a closer look

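In the 4 sperm samples, 13 flagellum genes had counts in 1 sample only and were flagged by a gap measure. They were Akap3, Akap4, Fsip1, Tekt2, Tekt4, Tekt5, Dnaic1, Dnali1, Rsph6a, Cfap43, Cfap44, Tcte1 and Smcp. In each, 3 samples were at 0 and 1 sample had 1 or 2 counts, so the gap divided by the range was 1, above the 95% critical value for 4 samples. In 12 of them the sample with counts was replicate 2, the deepest sperm sample, and in Akap4 it was replicate 3. Any gene with counts in 1 sample alone gives 1 by this measure, and 1 or 2 counts lie under the floor of 3. Chance alone marks about 1 in 20 groups when values are continuous, which these counts are not. Tcte3 had 70.8 ppm (3 counts) in sperm replicate 1, which the comparison did not use, against 0 and 18.7 ppm in testes.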

How the results depend on the processing

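The number of flagellum genes called lower, 3 as reported, was 0 with TMM factors, 0 with no filter on low counts, 0 at an adjusted p below 0.01, 8 with DESeq2, 15 and 17 with limma on log2(FPKM + 1) and log2(FPKM + 0.1), 8 with the FPKM filter and 7 with all 4 sperm samples. At an unadjusted p below 0.05, 17 were lower with TMM factors in edgeR and 13 with no filter. With each sample left out in turn it ranged from 0 to 6. Over all tested genes, 242 were higher and 249 lower as reported. TMM factors gave 23 and 89 and moved the median log2 fold change of all genes by -0.64. No filter gave 15 and 4, the FPKM filter 419 and 955, and an adjusted p below 0.01 gave 132 and 121. The numbers lower were 829 with DESeq2, 1529 and 1781 with limma at the 2 pseudocounts, and 1222 with all 4 sperm samples. With each sample left out they ranged from 68 to 606 higher and from 49 to 698 lower. The cause of these changes was not tested.

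When the replicate number was added as a block to the fit of all sperm samples, 0 flagellum genes and 103 of all genes were called lower, and no flagellum gene had an unadjusted p below 0.05. Deviations of same-numbered samples from their group means correlated by -0.017 and -0.050. Sperm and testes came from the same mice, but the sources used here do not say that a shared number marks shared mice, so the numbers were not taken as pairs. Numbers 3 and 4 exist only for sperm, so the block leaves them without a testes partner.

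The direction turned in 4 cases among the 28 tested genes and their settings. Tekt2, at -0.30 as reported, ranged from -0.022 to 0.17 with samples left out, above 0 without sperm replicate 4. Tcte3 was at -0.13 and -0.60 with limma at the 2 pseudocounts and ranged from -0.20 to 1.48 with samples left out, below 0 without testes replicate 1. The log2 ratio of the summed share of the flagellum genes, -1.69 as reported, stayed between -2.19 and -1.33 in every setting run. Without Odf2 it was -2.80, and with samples left out, chosen after seeing the data, it ranged from -3.82 to -2.28. Depth limits all of these values, since 3 counts over sperm replicates 2 to 4 correspond to 15.97 ppm.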
